A study of Mus musculus with 6 samples.

Results

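A set of 10 genes that mark vascular endothelium was followed in whole testes of mice at postnatal day 45: Pecam1, Cdh5, Kdr, Flt1, Tek, Tie1, Vwf, Emcn, Esam and Eng. The 10 were chosen by symbol and located among the 53700 Ensembl genes of the deposited count tables. RNA from 3 mice labelled MSL3 WT and 3 mice labelled MSL3 cKO, a conditional knockout of a floxed Msl3 allele, was sequenced, 1 library per mouse. All 6 mice carry the strain label Msl3em1Forni/C57BL/6J. The recombinase line, and so the cells in which the allele is removed, is not given in the sources used here.

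Endothelial cells line the blood vessels of the testis, which run between the seminiferous tubules and do not enter them. They read vascular endothelial growth factor (VEGF) through the receptors Kdr and Flt1 and angiopoietins through the receptor Tek with its partner Tie1. They are joined by VE-cadherin and related adhesion proteins, and they store von Willebrand factor. Because RNA was taken from whole testis, levels are relative to all RNA of the tissue. Changes in endothelial cell number, in RNA per endothelial cell and in the share of other cells cannot be told apart in any value below.

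The libraries held 56991431 to 73766444 reads assigned to genes on the strand used. The 10 genes together took 3573 to 4493 of these reads per library, or 0.00593% to 0.00732%. Every one of the 10 had reads in every library, from 44 for Emcn to 1603 for Vwf, and all 10 passed the filter on low counts. Germ cell markers were far more abundant: the spermatid markers Acrv1, Tnp1, Tnp2, Prm1, Prm2 and Spaca1 summed to 11467 to 15140 CPM per library (CPM, reads scaled to library size), against 58.8 to 73.2 CPM for the 10 endothelial genes. Msl3 itself had 15.9 to 18.9 CPM in the libraries labelled WT and 14.8 to 16.0 CPM in those labelled cKO, with overlap and no call (edgeR adjusted p 0.551), so groups are named by their labels.

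A pair of libraries stood apart in some genes of the mesothelial and lymphatic marker lists. WT replicate 2 and cKO replicate 3 had 29 and 41 reads of the mesothelial gene Upk3b and 28 and 35 of the lymphatic chemokine Ccl21a. The other 4 libraries had 1 to 8 and 3 to 10. Msln, another mesothelial gene, had 14 and 16 reads in the pair and 0 to 4 in the rest. Other genes of these lists did not set the pair apart. Lyve1 had 27 reads in WT replicate 2 but 9 in cKO replicate 3 and 10 in cKO replicate 2. Adipoq had 357 in cKO replicate 3 and 489 in WT replicate 3, and Prox1, Pdpn, Flt4 and Plin1 did not separate the pair either. Fold changes of the 10 endothelial genes are also given without this pair, whereas the marker lists of other cells are given with all 6 libraries only.

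Sequences upstream of the members are shown because the genes are studied here as one set of transcripts. The RefSeq table (GRCm38.p6) held a promoter window of 300 bases, from 250 before to 50 after the annotated start, for 6 of the 10 genes: Kdr, Flt1, Tek, Tie1, Emcn and Eng. ETS factors such as Erg and Fli1 are known regulators of endothelial genes. The ETS-type hexamer AGGAAG, searched on both strands (reverse complement CTTCCT), occurred in 4 of these 6 windows, in Flt1, Tie1, Emcn and Eng, and in 35.4% of all 32851 windows of that length. The windows of Flt1, Emcn and Kdr follow, as Flt1 had the highest and Emcn the lowest fold change of the 10, and Kdr is the sister receptor of Flt1. They are printed 5′ to 3′ on the strand of the gene, with each hexamer match in capitals.
Flt1 (chr5:147725962-147726261, minus strand): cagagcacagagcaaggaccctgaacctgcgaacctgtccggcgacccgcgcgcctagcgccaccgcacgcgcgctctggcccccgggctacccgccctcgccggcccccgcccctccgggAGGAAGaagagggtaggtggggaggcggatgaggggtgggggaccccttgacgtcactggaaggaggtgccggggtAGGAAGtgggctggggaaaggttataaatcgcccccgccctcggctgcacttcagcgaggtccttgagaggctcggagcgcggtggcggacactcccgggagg
Emcn (chr3:137340828-137341127, plus strand): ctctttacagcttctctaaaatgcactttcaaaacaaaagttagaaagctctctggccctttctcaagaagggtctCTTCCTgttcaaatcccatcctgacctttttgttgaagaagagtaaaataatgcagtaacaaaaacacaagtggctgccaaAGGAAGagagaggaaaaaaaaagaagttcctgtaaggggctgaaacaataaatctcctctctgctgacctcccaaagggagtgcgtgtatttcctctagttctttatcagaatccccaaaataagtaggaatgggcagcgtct
Kdr (chr5:75978406-75978705, minus strand): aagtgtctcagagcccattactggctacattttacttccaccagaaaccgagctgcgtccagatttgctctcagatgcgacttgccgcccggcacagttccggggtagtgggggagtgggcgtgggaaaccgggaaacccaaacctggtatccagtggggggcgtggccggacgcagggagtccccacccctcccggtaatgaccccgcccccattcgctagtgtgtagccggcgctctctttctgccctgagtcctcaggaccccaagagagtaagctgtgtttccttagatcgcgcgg
In Flt1 the matches began 129 and 53 bases before the start, and a TATAAA match lay 31 bases before it, a motif found in 13.6% of all windows on either strand. In Emcn they began 174 and 93 bases before the start. The Kdr window held no AGGAAG. A match is a string of letters and not a measured binding site, and the counts do not test it.

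The comparison of the libraries labelled cKO with those labelled WT asked whether the vascular genes of the testis differed with the Msl3 genotype. None of the 10 passed an edgeR quasi-likelihood adjusted p of 0.05 over the 21902 genes tested, where 0.0183% of all genes did. The fold changes were small and mostly above 1: 9 of the 10 genes had a positive log2 fold change, Emcn being the exception, where 50.7% of all genes tested were positive. Their median log2 fold change was 0.18, beside 0.0031 for all genes tested. At an unadjusted edgeR p under 0.05 there were 3 members, Cdh5, Flt1 and Vwf, each higher in cKO, and 0 lower. Of all genes tested 13.9% had such a p, 7.33% higher and 6.54% lower in cKO. In 2 members, Cdh5 and Tek, every cKO library lay above every WT library, and in 0 was the reverse true, while the groups did not overlap, in either direction, for 18.9% of all genes tested. DESeq2 also called 0 of the 10, where it called 1.64% of the genes to which it gave an adjusted p. It gave one to 4 of the 10 (0.177 to 0.375), and 3 had an unadjusted p under 0.05, beside 11.9% of all genes.

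The VEGF receptors came first. Kdr (VEGFR2, ENSMUSG00000062960, chr5:75932827-75978458 of GRCm38) is the main signalling receptor for VEGF in endothelium. Its level was 3.71, 3.93 and 3.48 CPM in WT replicates 1, 2 and 3 and 3.59, 5.15 and 4.76 CPM in cKO replicates 1, 2 and 3. The groups overlapped because cKO replicate 1 lay inside the WT range while the other 2 cKO libraries lay above it. The means were 3.70 ± 0.227 (SD, n = 3) and 4.50 ± 0.810 CPM (SD, n = 3), a 1.21-fold difference with 95% limits of 0.977 and 1.50 (edgeR adjusted p 0.403).

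Flt1 (VEGFR1, ENSMUSG00000029648, chr5:147561604-147726011) binds VEGF tightly and, as a soluble form, acts as a trap for it. Its level was 6.35, 5.84 and 5.47 CPM in the WT libraries and 6.29, 7.77 and 7.45 CPM in the cKO libraries. Again cKO replicate 1 fell within the WT range and replicates 2 and 3 were above it. Means of 5.89 ± 0.439 and 7.17 ± 0.779 CPM (SD, n = 3 each) gave a log2 fold change of 0.28 (SE 0.111), the highest of the 10, with an edgeR adjusted p of 0.313. Counts per gene do not separate the soluble from the membrane form of Flt1.

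The angiopoietin receptors had smaller folds. Tek (TIE2, ENSMUSG00000006386, chr4:94739289-94874976), the receptor of Angpt1 and Angpt2 that keeps vessels quiescent, had 3.45, 3.31 and 3.28 CPM in WT and 3.71, 3.54 and 4.01 CPM in cKO libraries. The groups did not overlap, but the fold was 1.12 with limits of 0.946 and 1.33 (edgeR adjusted p 0.532). Tie1 (ENSMUSG00000033191, chr4:118471191-118490061), its orphan partner, had 2.99, 2.50 and 2.67 CPM against 3.06, 2.93 and 2.84 CPM. Here WT replicate 1 lay among the cKO libraries, and the fold of 1.08 had limits of 0.899 and 1.31 (edgeR adjusted p 0.715).

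Eng (endoglin, ENSMUSG00000026814, chr2:32646595-32682669), the endothelial co-receptor for BMP9 and BMP10, had 7.23, 6.81 and 6.84 CPM in WT and 7.05, 8.13 and 8.83 CPM in cKO libraries. As for Kdr and Flt1, cKO replicate 1 was at the WT level and the other 2 cKO libraries were higher. Eng had a log2 fold change of 0.20 and an SE of 0.104 (edgeR adjusted p 0.411). Eng was the member whose exons overlapped another gene on the opposite strand, by 61 bases with Fpgs.

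Among the junction proteins, Cdh5 (VE-cadherin, ENSMUSG00000031871, chr8:104101625-104144511), which forms the adherens junctions between endothelial cells, differed most. It had 8.93, 8.26 and 8.85 CPM in WT and 9.68, 9.88 and 11.5 CPM in cKO libraries, so that all 3 cKO libraries were above the WT range and cKO replicate 3 was the highest. Means were 8.68 ± 0.366 and 10.3 ± 0.992 CPM (SD, n = 3 each), a 1.19-fold difference with limits of 1.03 and 1.38 (edgeR adjusted p 0.307, the lowest of the 10).

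Pecam1 (CD31, ENSMUSG00000020717, chr11:106654217-106750628) sits at endothelial contacts and is also carried by leukocytes and platelets. It had 3.69, 2.99 and 3.33 CPM in WT and 3.29, 3.65 and 3.60 CPM in cKO libraries, and the cKO range lay inside the WT range. Esam (ENSMUSG00000001946, chr9:37528078-37538319), a tight junction adhesion molecule, had 2.52, 2.14 and 2.83 CPM against 2.63, 2.72 and 2.88 CPM, again with overlap. Their edgeR adjusted p values were 0.837 and 0.697, and the limits of their folds ran from 0.874 to 1.27 and from 0.893 to 1.35.

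Emcn (endomucin, ENSMUSG00000054690, chr3:137341067-137432185), a surface sialomucin of capillary and venous endothelium, was the least abundant member, with 44 to 72 reads per library. It had 0.817, 0.971 and 1.16 CPM in WT and 0.658, 0.786 and 1.23 CPM in cKO libraries. Replicate 3 was the highest in both groups and the ranges overlapped throughout. The log2 fold change was -0.15 and the limits of the fold were 0.622 and 1.30 (edgeR adjusted p 0.826), the widest of the 10.

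Vwf (ENSMUSG00000001930, chr6:125546774-125686679), the clotting glycoprotein stored in endothelial granules, had the most reads. It had 21.1, 22.1 and 20.9 CPM in WT and 21.6, 28.6 and 26.1 CPM in cKO libraries, with cKO replicate 1 inside the WT range and the other 2 above it. Means were 21.4 ± 0.644 and 25.5 ± 3.56 CPM (SD, n = 3 each), and the log2 fold change was 0.25 (SE 0.0975, edgeR adjusted p 0.312). Without cKO replicate 1 the log2 fold change was 0.36 and passed the threshold (edgeR adjusted p 0.0352), with 628 genes called in that fit. Each library was also corrected for the GC content and length of the longest transcript, an alternative added once values were known. The log2 fold change of Vwf was then 0.05, that of Flt1 0.15, that of Kdr 0.16, that of Eng 0.13, that of Tie1 0.03 and that of Pecam1 0.04.

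**Figure D1:**
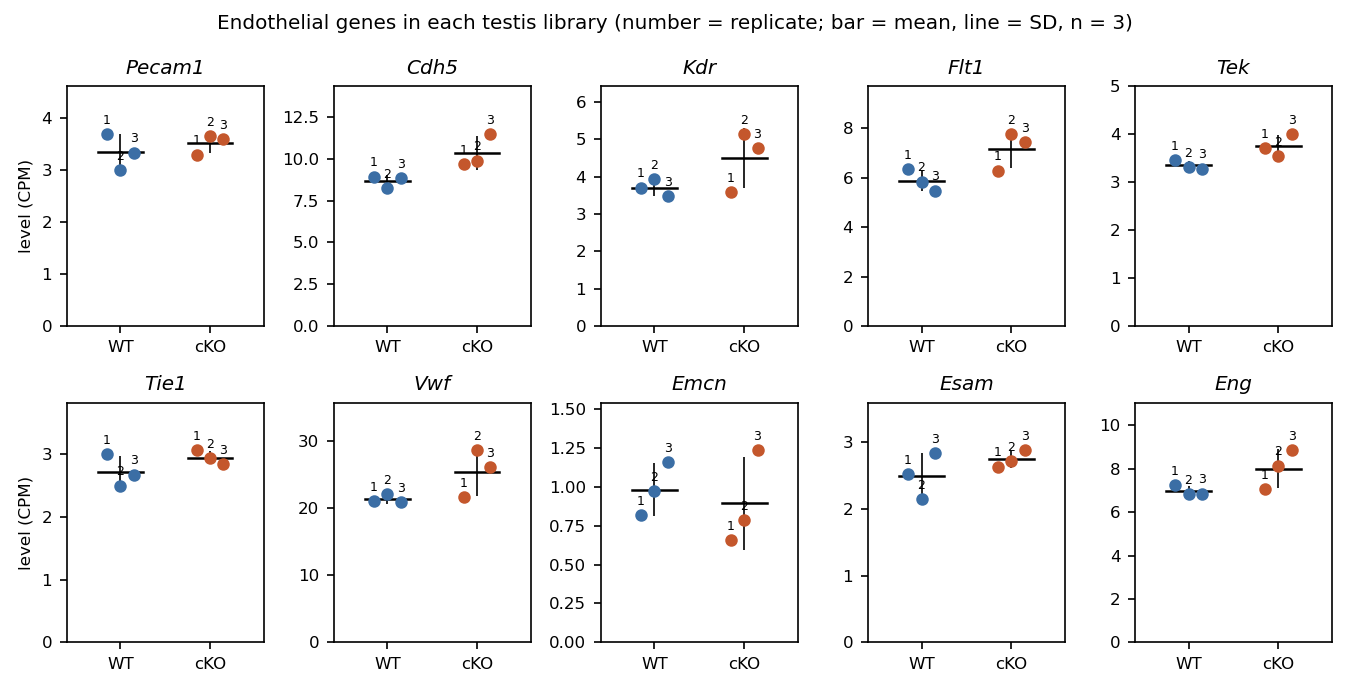
Level of each endothelial gene (y axis, CPM, starting at 0) in the 3 WT and 3 cKO libraries, with replicate numbers above the points, the mean as a horizontal bar and the SD as a vertical line (n = 3). In Kdr, Flt1, Vwf and Eng cKO replicate 1 lies within the WT range and cKO replicates 2 and 3 lie above it, and only in Cdh5 and Tek do the groups not overlap.

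The summed level of the 10 was 60.8, 58.9 and 58.8 CPM in WT replicates 1, 2 and 3, 61.6 CPM in cKO replicate 1 and 73.2 CPM in each of cKO replicates 2 and 3. The highest library was cKO replicate 3 for 5 members, cKO replicate 2 for 3, and WT replicate 1 and cKO replicate 1 for 1 each. The lowest was WT replicate 2 for 5 members, WT replicate 3 for 4 and cKO replicate 1 for 1. Over the 6 libraries the median Pearson r of log2 level between the 45 pairs of members was 0.50, a description of points that share libraries and depth, and 22 of the 45 had an r over 0.5. The pair most alike was Kdr and Vwf (r = 0.985), followed by Cdh5 and Tek (r = 0.936), and the pair least alike was Tie1 and Emcn (r = -0.60). Emcn had an r of 0.27 or less with each of the other members. When each library was expressed as a deviation from its group mean, the median r was 0.32 and 9 of the 45 were negative.

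Outside the lists, the 5 genes whose pattern over the 6 libraries was most like the mean of the members were Ankfy1, Flrt1, Tfg, Pdpr and 4931406P16Rik, with r from 0.990 to 0.993. Flrt1, a transmembrane protein with leucine-rich repeats, had 10.3, 8.51 and 9.33 CPM in WT and 10.1, 11.8 and 12.7 CPM in cKO libraries. Of the 16720 genes compared, which had a mean of 1 CPM or more, 454 (2.72%) had an r over 0.9.

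Single libraries moved the set, as the plot of fold changes without each library shows. The median log2 fold change of the 10 lay between 0.13 (without cKO replicate 3) and 0.23 (without cKO replicate 1). In these fits 8 to 10 of the 10 values were positive. The count of members with an unadjusted edgeR p under 0.05, 3 with all 6 libraries, was 0 without WT replicate 3 or cKO replicate 3, 1 without WT replicate 2 or cKO replicate 2, 3 without WT replicate 1 and 5 without cKO replicate 1. The mean log2 level of the 10 genes was lowest in WT replicate 2 (2.26) and highest in cKO replicate 3 (2.54). Leaving out both therefore narrows the mean difference between the groups by construction. With WT replicate 2 and cKO replicate 3 both left out, the median was 0.10, 7 of the 10 values were positive and 0 had an unadjusted edgeR p under 0.05. Emcn then had a log2 fold change of -0.47, Cdh5 0.13, Eng 0.10, Tek 0.10, Pecam1 -0.03 and Esam -0.01, while Kdr (0.27), Flt1 (0.24) and Vwf (0.25) were close to their values in all 6 libraries. Corrected for GC content and length, the median was 0.12 and 1 member had such a p. Over all alternatives, this correction among them, the log2 fold change of Cdh5 lay between 0.13 and 0.30. In the same settings Tek lay between 0.10 and 0.20, Esam between -0.01 and 0.23, and Emcn between -0.47 and 0.04.

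**Figure D2:**
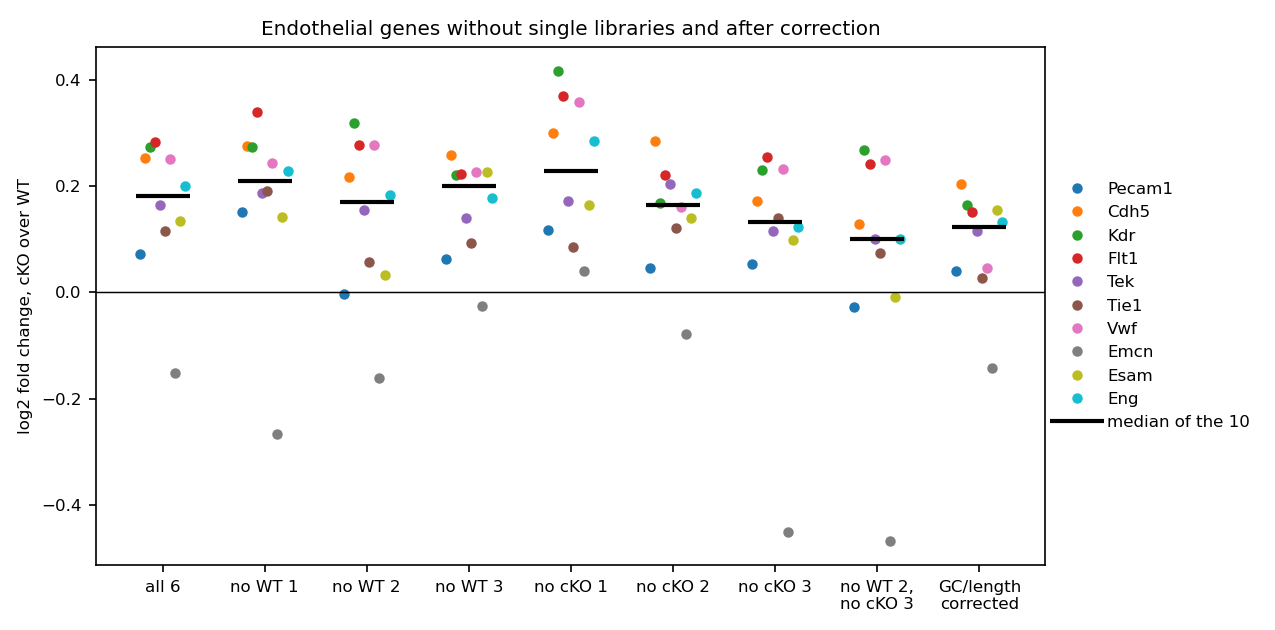
Log2 fold change of cKO over WT (y axis) for each of the 10 genes (coloured points) with all 6 libraries, without each library in turn, without WT replicate 2 and cKO replicate 3, and corrected for GC content and length (x axis). The black bar, the median of the 10, runs from 0.10 to 0.23, and Emcn is the lowest point in each setting shown.

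Per length of transcript the members were of moderate to low level in the tissue. Per kilobase of merged exons the WT order was Cdh5 with 2.07 ± 0.0871 (SD, n = 3) CPM per kilobase, Eng with 1.72, Vwf with 1.33, Esam with 0.871, Tek with 0.711, Tie1 with 0.553, Pecam1 with 0.536, Flt1 with 0.436, Kdr with 0.410 and Emcn with 0.182. Tie1 and Pecam1 overlapped across the WT libraries, as did Flt1 and Kdr, and the other neighbours in this order did not. In cKO libraries Eng overlapped Vwf, Tie1 overlapped Pecam1, Pecam1 overlapped Flt1 and Flt1 overlapped Kdr, and the other neighbours did not overlap. Between 10.9% (Emcn) and 47.2% (Cdh5) of the tested genes had a lower WT level per kilobase, the median of tested genes being 2.42. The order depends on the length used: per kilobase of the longest protein-coding transcript, a measure added once values were known, Vwf came first with 2.42 and Cdh5 next with 2.17, as the 8834 bases of Vwf compare with 16064 bases of merged exons. Emcn was last by both lengths.

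**Figure D3:**
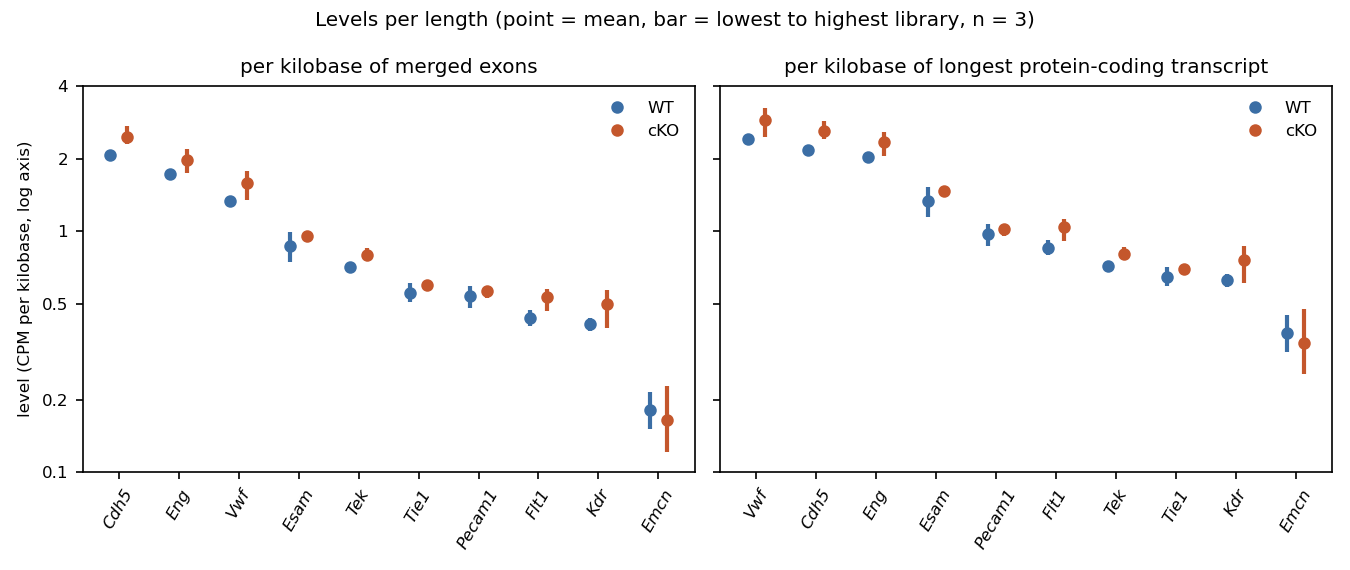
Level of each gene in CPM per kilobase (log axis) in WT and cKO libraries (point, mean; bar, lowest to highest of 3 libraries), by merged exons on the left and by the longest protein-coding transcript on the right. Cdh5, Eng and Vwf are the top 3 by either length and Emcn is the lowest.

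The partners of these genes were followed in 7 further lists of 70 genes, of which 68 had enough reads to be tested. None passed the edgeR threshold, 46 were positive and 22 negative, and their median log2 fold change was 0.08. At an unadjusted p under 0.05 there were 8, all higher in cKO, among 68, where 13.9% of all genes tested had such a p in either direction. Some listed genes were more abundant than any member. Klf4, Tgfbr1, Jag1 and Jam2 had WT means of 160, 61.2, 34.6 and 33.6 CPM, against 21.4 CPM for Vwf. Which testis cells the reads of the listed genes came from was not tested.

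In the VEGF list, 6 of 8 genes were positive and 0 were called. The ligand Vegfa had 2.79, 3.39 and 3.14 CPM in WT and 3.10, 3.56 and 3.51 CPM in cKO libraries, and Vegfb, a ligand of Flt1, had means of 3.73 and 3.52 CPM. Their groups overlapped (edgeR adjusted p 0.702 and 0.776). Flt4 (VEGFR3), the receptor of lymphatic and sprouting endothelium, had 12.7, 10.4 and 11.0 CPM against 14.3, 14.2 and 13.7 CPM, with no overlap and cKO replicate 1 the highest. Its log2 fold change of 0.30 (SE 0.0902) had an edgeR adjusted p of 0.288. The co-receptor Nrp1 had a log2 fold change of 0.05.

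All 4 genes of the angiopoietin list had positive values and none was called. Angpt1, the activating ligand of Tek, was scarce, with 15 to 23 reads per library, and Angpt2, the context-dependent antagonist, had means of 1.91 and 2.07 CPM. Ptprb (VE-PTP), the phosphatase that acts on Tek and VE-cadherin, had 8.91, 9.31 and 9.38 CPM in WT and 9.43, 11.8 and 12.1 CPM in cKO libraries. Its groups did not overlap, although cKO replicate 1 was next to the WT range, and the edgeR adjusted p was 0.312. Corrected for GC content and length, its log2 fold change was 0.07, against 0.27 uncorrected.

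In the endoglin list, 10 of 11 tested genes were positive and 0 were called. The type I receptor Acvrl1 (ALK1) had 4.54, 4.58 and 4.62 CPM against 4.67, 4.38 and 5.43 CPM, with overlap. Bmpr2, the type II receptor, had 22.0, 23.1 and 20.2 CPM in WT and 21.8, 31.7 and 31.4 CPM in cKO libraries, the same split of cKO replicate 1 from the other 2 as in Kdr and Vwf. Its log2 fold change was 0.38 (SE 0.126, edgeR adjusted p 0.298), and without cKO replicate 1 it was 0.54 and passed the threshold (edgeR adjusted p 0.00753). Corrected for GC content and length it was 0.18. Of the ligands, Gdf2 (BMP9) had 1 to 3 reads per library and Bmp10 had 0 in all 6.

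Junction and surface genes were positive in 9 of 10, with 0 called. The tight junction gene Cldn5 had log2 fold change 0.09 and the surface sialomucin Cd34 0.01, both with overlap. Mmrn2, an extracellular matrix protein of vessels, had the largest value of that list, 0.32 (SE 0.144, edgeR adjusted p 0.350), with 2.38, 2.14 and 2.22 CPM in WT and 2.36, 3.23 and 2.88 CPM in cKO libraries.

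The list of endothelial transcription factors was split, with 10 of 17 positive and 0 called. Erg had 1.19, 1.48 and 1.24 CPM in WT and 1.45, 1.66 and 1.90 CPM in cKO libraries (log2 fold change 0.35, SE 0.165, edgeR adjusted p 0.369), with a slight overlap. Fli1, a related ETS factor, and Sox17, a factor of arterial endothelium, were near 0, at -0.01 and -0.0015.

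In the Notch list, 6 of 8 were positive and 0 were called. The receptor Notch4 had a log2 fold change of 0.13 and the ligand Dll4 one of -0.24. Dll4 had 0.987, 1.03 and 1.06 CPM in WT against 0.836, 0.983 and 0.805 CPM in cKO libraries. Its groups did not overlap, by a narrow margin (edgeR adjusted p 0.566). Heyl, a Notch target also found in mural cells, had 1.67, 1.51 and 2.16 CPM against 3.15, 2.72 and 2.48 CPM, with no overlap. Its log2 fold change of 0.65 (SE 0.162, edgeR adjusted p 0.276) was the largest of the 68. The filter on low counts bore on Heyl and Bmpr2, which passed without it (edgeR adjusted p 0.00572 and 0.00528, with 757 genes called).

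The last list, of other vessel genes, leaned the other way from the members, with 9 of 10 negative, a median of -0.13 and 0 called. Plvap, the diaphragm protein of fenestrated capillaries, had 16 to 33 reads per library and overlapping groups. Egfl7, a secreted endothelial factor, had means of 4.10 and 3.69 CPM, and Nos3, endothelial nitric oxide synthase, 2.96 and 2.88 CPM. S1pr1, the sphingosine 1-phosphate receptor, had 2.88, 2.94 and 2.74 CPM in WT and 2.71, 1.88 and 2.24 CPM in cKO libraries, without overlap (log2 fold change -0.32, SE 0.148, edgeR adjusted p 0.368). Genes named for endothelium therefore lay on both sides of 0.

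The remaining genes with an unadjusted p under 0.05, Cd93, Foxo1 and Notch1, were named after their values were seen, with log2 fold changes of 0.30, 0.25 and 0.32.

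Without WT replicate 2 and cKO replicate 3, 0 of the vessel pathway genes were called by edgeR. The log2 fold changes of Heyl (0.61), Erg (0.35), Bmpr2 (0.33), Mmrn2 (0.27), Flt4 (0.26), Ptprb (0.21) and S1pr1 (-0.29) then kept their direction. Those of Angpt1 (-0.03), Acvrl1 (-0.02) and Cldn5 (-0.08) turned from positive to negative.

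**Figure D4:**
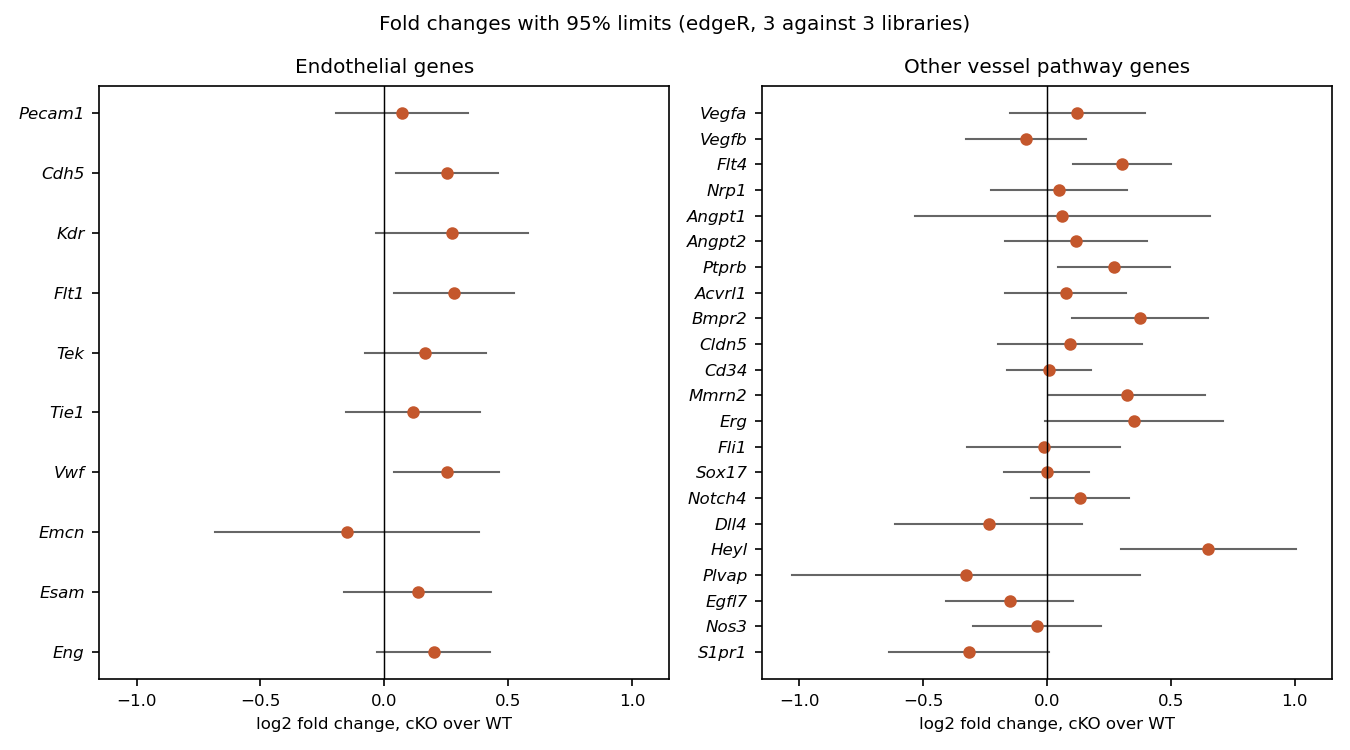
Log2 fold change of cKO over WT (x axis) with 95% limits from edgeR for the 10 endothelial genes on the left and the 22 named vessel pathway genes on the right. The points of the members lie between -0.15 and 0.28, and those of the other genes between -0.33 and 0.65.

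Markers of other cells were set beside these values. The 6 Sertoli genes were all positive, with a median log2 fold change of 0.09. Sox9 and Wt1 did not overlap between the groups (edgeR adjusted p 0.288 and 0.350). The same held, in either direction, for 18.9% of all genes tested. Of the 6 tested pericyte genes 4 were positive and 2 negative, with a median of 0.23. Rgs5, the most abundant of them, was at -0.0068 and Kcnj8 at -0.36. The summed pericyte level was 13.97 to 17.0 CPM in WT and 14.6 to 20.1 CPM in cKO libraries. Of the macrophage genes 7 of 8 were negative (median -0.24). The exception, Mrc1, the mannose receptor, was the most abundant of them, with 46.3 to 49.3 CPM in WT and 51.9 to 60.5 CPM in cKO libraries and no overlap (edgeR adjusted p 0.288). The summed macrophage level overlapped, at 99.0 to 118 CPM in WT and 102 to 116 CPM in cKO libraries. Of the spermatid genes 5 of 6 were negative (median -0.16). The lowest summed spermatid level, 11467 CPM, was in cKO replicate 2, and the next lowest, 13345 CPM, in cKO replicate 3. These libraries had the highest summed endothelial level. In cKO replicate 1 the spermatid sum was 14289 CPM, inside the WT range of 13956 to 15140 CPM. The part of these other cells in the endothelial values was not tested.

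Blood and lymphatic genes were read because some of them are shared with endothelium. Of the platelet genes, Gp9 had 0 reads in all 6 libraries, Ppbp 0 to 3 and Treml1 1 to 3, while Pf4 had 77 to 127 and Itga2b 65 to 83. The summed level of the 5 was 3.02 to 3.27 CPM in WT and 2.79 to 3.34 CPM in cKO libraries. The globin gene Hbb-bs had 104 to 222 reads per library, and the summed red cell list overlapped between the groups (27.4 to 30.0 and 26.7 to 33.3 CPM). That sum was mostly Alas2, the erythroid enzyme of heme synthesis, with 21.9 to 26.8 CPM per library and a log2 fold change of 0.11. The 4 globin genes were negative, Hba-a1 without overlap, and the median of the 5 genes tested was -0.27. Of the lymphatic genes, Lyve1 had 5 to 27 reads per library and was not tested, and Ccl21a had 3 to 35. The summed lymphatic level of 27.1 to 30.5 CPM in WT and 31.8 to 33.0 CPM in cKO libraries rested mostly on Flt4, Prox1 and Pdpn. Flt4 and Prox1 had log2 fold changes of 0.30 and 0.22, and Pdpn one of -0.09. Whether the reads of these genes came from lymphatic endothelium was not tested. The lymphocyte list had a median of -0.11, with 2 of 6 genes tested. The peritubular myoid list had a median of -0.12, with 1 of 5 genes positive. That gene, Myh11, had a log2 fold change of 0.32 (edgeR adjusted p 0.341). Its level was 34.2, 37.7 and 38.2 CPM in WT and 33.9, 54.6 and 48.7 CPM in cKO libraries. Leydig genes had a median of -0.08, and the fat and mesothelium list -0.07 with 3 of 5 genes tested. The epididymal list had 1 tested gene, Spink8, at -0.38, and Lcn8 at 0 reads in all 6 libraries.

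**Figure D5:**
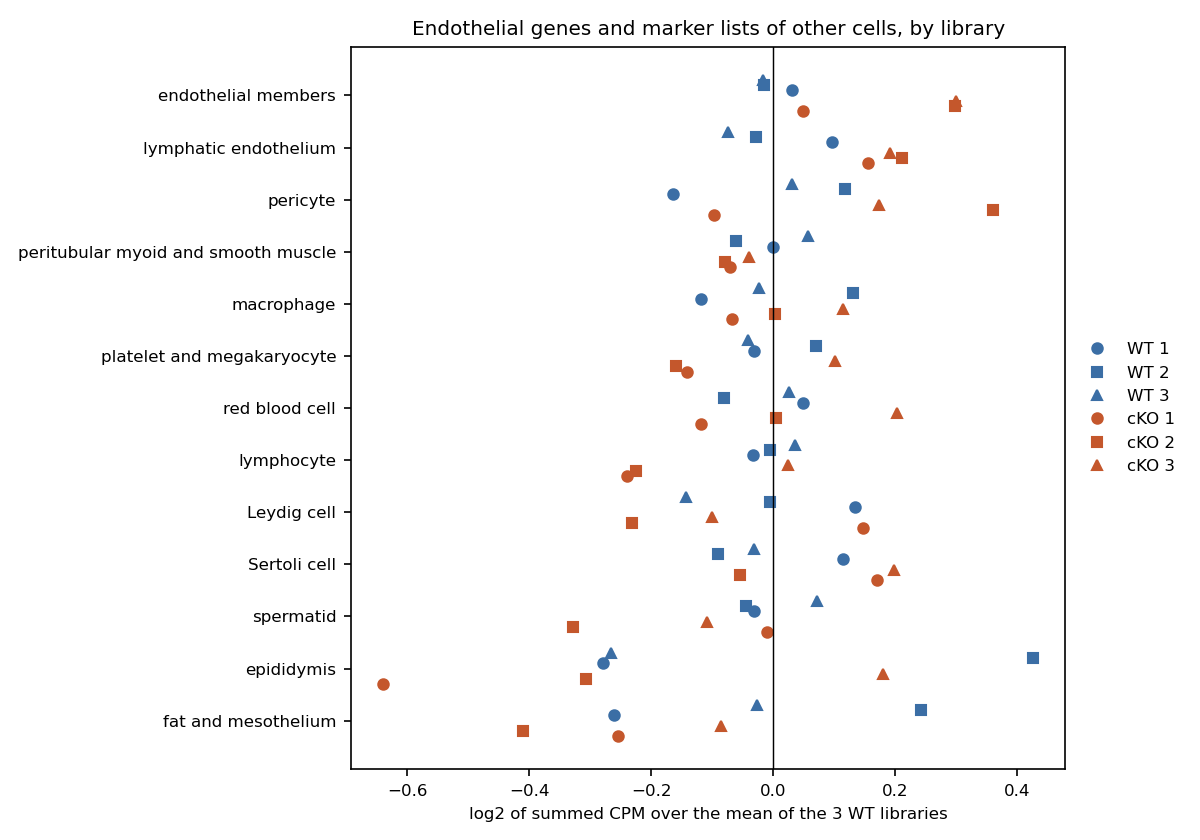
Summed CPM of the 10 endothelial genes and of 12 marker lists of other cells in each library, as log2 of the ratio to the mean of the 3 WT libraries (x axis), with 1 symbol per replicate. In the endothelial row cKO replicates 2 and 3 (73.2 CPM each) lie apart from the other 4 libraries (58.8 to 61.6 CPM).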

How the data were processed

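Total RNA of whole testes was read as single-end reads of 75 bp in 6 libraries, grouped by genotype label. The deposited values are raw read counts per Ensembl gene, in the layout of STAR's gene count output. STAR, HTSeq, DESeq2 and the build mm10 are named in the submitters' processing notes, without versions or roles. Annotation release and read filters are not given in the sources used here. The lines for unmapped, multimapping, unassigned and ambiguous reads (14.8% to 16.7% of reads) were left out. Opposite-strand counts (96.0% to 96.2% of both strand columns) were used. Symbols, exon lengths and coordinates came from GENCODE M21 (GRCm38), which matched 52147 of 53700 identifiers.

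Here edgeR 4.0.16 in R 4.3.3 was run with TMM scaling, filterByExpr (minimum count 10), a quasi-likelihood F test with no covariate, and Benjamini-Hochberg adjusted p values (21902 genes, threshold 0.05). CPM use TMM-scaled library sizes, log2 levels add 0.5 CPM, and standard errors come from the F statistic. The procedure was tested on simulated data.

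The members, lists and tests were chosen with earlier results of these data known. Named outside the 10 were Msl3, 19 partners fixed by role, the largest change per list among genes of at least 1 CPM, and the 5 genes most alike in pattern. Alternatives were RLE scaling, library totals, no filter, at least 10 reads in every library, unstranded counts, a replicate block, robust fitting, DESeq2 1.42.0, a threshold of 0.1 and each library left out. The GC content and length correction (loess, span 0.3), the fit without both WT replicate 2 and cKO replicate 3, and the transcript-based length were chosen after seeing the data.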

Additional observations from a re-analysis of the deposited data

How the results depend on the processing

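The count of all genes past the edgeR threshold, 4 with all 6 libraries, was 757 with no filter on low counts, 2 with unstranded counts, 49 with the replicate block, 199 with DESeq2 (of 12135 genes with a defined adjusted p) and 1 to 628 without each library in turn. The count of endothelial genes past it was 0 in every setting except without cKO replicate 1, where it was 1 (Vwf), a range of 0 to 1 over the left-out libraries. The count of vessel pathway genes was 0 with all libraries, 2 with no filter (Bmpr2 and Heyl) and 0 to 1 over the left-out libraries, Bmpr2 passing without cKO replicate 1. The median log2 fold change of the endothelial genes, 0.18, ran from 0.13 to 0.23 over the left-out libraries and was 0.10 without WT replicate 2 and cKO replicate 3. For the vessel pathway genes the median of 0.08 ran from 0.05 (without cKO replicate 3) to 0.11, and it was 0.040 when corrected for GC content and transcript length and 0.021 without WT replicate 2 and cKO replicate 3. For each of these the cause was not tested. Between WT and cKO libraries of 1 replicate number, deviations from the group mean correlated at 0.40, 0.26 and -0.09. These values do not settle whether the numbers mark pairs. The numbers were not used as pairs because same-numbered mice are not said to be littermates. With the replicate block 0 endothelial genes were called and 4 had an unadjusted p under 0.05. Of 541 values of 33 named genes under these alternatives, 537 stayed on the same side of the threshold and 4 passed it. Emcn, with 44 to 72 reads per library, had the widest limits of the 10.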

Other observations

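Reads on the same strand as the gene, which were left out of the counts above, were few for most endothelial genes, with 0 for Emcn and Esam in all 6 libraries. Eng had 33 to 48 such reads per library, 8.17% of its reads on both strands, and its exons overlap those of Fpgs on the opposite strand. Tek had 2, 14 and 3 in WT replicates 1, 2 and 3 and 6, 20 and 10 in cKO replicates 1, 2 and 3, 3.99% of its reads on both strands, and its exons overlap no other annotated gene in GENCODE M21. With unstranded counts the log2 fold change of Tek was 0.20, against 0.16 with opposite-strand counts.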
